A study of Mus musculus with 16 samples.

Results

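Elastin (Eln), tenascin C (Tnc), fibronectin (Fn1), periostin (Postn), decorin (Dcn), the cross-linking oxidases Lox and Loxl1, Sparc, biglycan (Bgn) and transforming growth factor beta 1 (Tgfb1) were followed across whole mouse lung. They were picked by name as elastic fibre, glycoprotein and proteoglycan genes of the lung matrix, with earlier results of these data known. All 10 were measured, of 19938 genes with a usable probe set. Each of the 10 had a single probe set. The arrays came from lungs of mice lacking Vldlr, which encodes a receptor for very low density lipoprotein, and of wild-type mice, after repeated house dust mite (HDM) or saline dosing. The groups were Vldlr-/- mice given HDM (KO HDM), Vldlr-/- mice given saline (KO saline), wild-type B6129SF2/J mice given HDM (WT HDM) and wild-type B6129SF2/J mice given saline (WT saline), with 4 arrays each. Each dose was 25 µg of HDM, or saline alone, in 10 µl into the nose, on 5 days of a week over 6 weeks. Which part of Vldlr was disrupted, on which strain, and how many animals stood behind an RNA sample are not stated in the sources used. The arrays are described as biological replicates, so the p-values reflect only how far these samples spread, which may be partly technical.

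HDM is an inhaled allergen that produces airway inflammation resembling asthma in mice. The lung's recoil depends on elastic fibres, in which tropoelastin is deposited on a microfibril scaffold and cross-linked by lysyl oxidases. Matricellular glycoproteins such as tenascin C, periostin and Sparc sit in the matrix and modulate cell adhesion, fibronectin forms the provisional matrix of injured tissue, and the small proteoglycans decorin and biglycan bind collagen and the growth factor TGF-beta. All values below are log2 levels made by RMA, or differences between group means of such levels, called changes. Levels of different genes cannot be set against each other, because each probe set has its own response. A gene passed at a limma adjusted p under 0.05, with p-values adjusted over all 19938 genes. In whole tissue, a smaller number of cells of a type and less RNA per cell cannot be told apart.

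Vldlr was lower in KO lungs, at 9.40 to 9.91 on the 8 KO arrays and 10.27 to 10.92 on the 8 WT arrays. The difference was -0.93 under HDM (limma adjusted p = 0.000277, SE 0.12) and -0.76 under saline (adjusted p = 0.00697). Array medians spanned 8.78 to 8.85 and pairwise correlations of arrays 0.9798 to 0.9954, and the lung markers Sftpc, Ager, Scgb1a1, Foxj1 and Pecam1 were present on every array, with Sftpc at 13.4 to 14.1. KO HDM 4 stood apart from the other KO HDM arrays, with a mean level of 10 macrophage genes of 10.46, against 10.90 to 11.06 on KO HDM 1, 2 and 3. The WT HDM arrays were split on the same genes, at 10.43 and 10.26 on WT HDM 1 and 2 and 10.92 and 10.94 on WT HDM 3 and 4. WT saline 2 and 3 read 11.47 and 11.22 for the eosinophil-associated ribonuclease Rnase2a, which stood at 8.54 and 9.68 on WT saline 1 and 4. For the 10 genes, calls that turn on KO HDM 4 or on WT saline 2 and 3 are given with and without them. Among the pathway and marker genes that the naming rule took, leaving out WT saline 2 and 3 ended 10 of 11 calls in the interaction, 28 of 45 with HDM in WT lungs, 5 of 46 with HDM in KO lungs and 4 of 45 between genotypes under HDM. The interaction call that held was that of the mesothelial gene Msln (-0.59, adjusted p = 0.0363). Leaving out KO HDM 4 ended 1 call, that of Mfap5 between genotypes under HDM.

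Of the 3 matricellular genes of the set Tnc rose with HDM in KO lungs, Postn fell in WT lungs and Sparc passed in no comparison, and their promoter regions are shown so that the results below can be read against sequence. Promoter windows, 250 bases before to 50 after the start of transcription, were matched by symbol for 5 of the 10 genes and are from RefSeq, build GRCm38.p6, printed along the gene's strand from 5′ to 3′. Where a gene had 2 windows the downstream one is shown, and capitals mark TATAA, the core of a TATA box. They are at chr4:64046887-64047186 on the minus strand for Tnc, chr3:54360857-54361156 on the plus strand for Postn and chr11:55420031-55420330 on the minus strand for Sparc.
Tnc: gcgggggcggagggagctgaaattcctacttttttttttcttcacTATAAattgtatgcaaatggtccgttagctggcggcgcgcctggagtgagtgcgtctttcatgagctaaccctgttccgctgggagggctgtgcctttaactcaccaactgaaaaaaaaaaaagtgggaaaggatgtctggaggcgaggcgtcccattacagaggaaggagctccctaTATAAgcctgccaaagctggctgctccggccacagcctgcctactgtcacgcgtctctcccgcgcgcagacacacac
Postn: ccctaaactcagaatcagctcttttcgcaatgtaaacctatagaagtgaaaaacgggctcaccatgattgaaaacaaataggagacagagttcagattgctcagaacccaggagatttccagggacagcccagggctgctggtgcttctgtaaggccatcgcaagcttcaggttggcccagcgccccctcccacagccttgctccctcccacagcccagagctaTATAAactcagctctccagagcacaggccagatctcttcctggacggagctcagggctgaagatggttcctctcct
Sparc: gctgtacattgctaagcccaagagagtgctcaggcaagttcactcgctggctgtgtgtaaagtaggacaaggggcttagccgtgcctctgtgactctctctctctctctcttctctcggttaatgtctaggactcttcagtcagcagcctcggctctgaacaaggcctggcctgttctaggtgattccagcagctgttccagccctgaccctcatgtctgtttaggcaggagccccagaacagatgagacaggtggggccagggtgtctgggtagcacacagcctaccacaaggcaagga
TATAA began 27 bases before the start in Tnc, with a second copy 205 bases before it, and 26 bases before the start in Postn. It was not found in the Sparc window. A copy beginning 20 to 40 bases before the start on the gene's strand was found in 3.52% of all 32851 windows, and a copy anywhere on either strand in 24.9%. CAGAC, a core bound by SMAD proteins downstream of TGF-beta, was in the Tnc window 70 bases before and 39 bases after the start, and in the Sparc window 35 bases before and 15 bases after it. It was not found in the Postn window, and 49.6% of all windows held it. Neither the STAT6 element nor TGANTCA, bound by AP-1, was in any of the 3 windows, against 6.95% and 7.81% of all windows. Both strands were searched for each motif, and a match of letters is a description, not a binding site.

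Across the set, tenascin C, elastin and fibronectin rose and decorin fell with HDM in KO lungs, whereas in WT lungs fibronectin rose and periostin fell. Under HDM, KO lungs had more Tnc, Eln and Loxl1 mRNA and less Dcn mRNA than WT lungs, and under saline no gene of the set passed. The call of Loxl1 passed in only 10 of 27 alternative settings, and the fall of periostin in WT lungs in 14 of 27. The changes with HDM differed between the genotypes for Tnc, Eln and Dcn, which passed in 25, 15 and 11 of 26 alternative settings in that order. In KO lungs 4 of the 10 genes changed with HDM, against 8.84% of all genes, with 3 higher (4.96% of all genes were higher) and 1 lower (3.88%). Of all calls in KO lungs 56.1% were higher, and 46.8% after quantile normalization. In WT lungs 2 of the 10 changed, against 17.6% of all genes, with 1 higher (7.86%) and 1 lower (9.72%), and 44.7% of all calls were higher, or 56.3% after a median shift. Between KO and WT lungs under HDM 4 of the 10 differed, against 11.7% of all genes, with 3 higher in KO (5.84%) and 1 lower (5.83%). Under saline 0 of the 10 passed in limma, with 1 of them at an unadjusted p under 0.05, and 0.231% of all genes passed (0.0903% higher and 0.14% lower in KO). In the interaction, the HDM change in KO lungs minus that in WT lungs, 3 of the 10 passed, against 0.802% of all genes, with 2 higher (0.356%) and 1 lower (0.446%). The median change of the set was 0.058 with HDM in KO lungs and 0.0018 in WT lungs, beside -0.028 and -0.051 for all genes, and 0.18 between genotypes under HDM, beside 0.020 for all genes. Without KO HDM 4 the counts were 5 with HDM in KO lungs, 5 between genotypes under HDM and 3 in the interaction. Without WT saline 2 and 3 they were 1 with HDM in WT lungs, 3 between genotypes under HDM and 0 in the interaction. The count in the interaction was 1 when KO HDM 1 or KO saline 2, 3 or 4 was left out singly. It was also 1 without WT HDM 2 or 4, or WT saline 1, 2 or 3, each left out singly. The shares of all genes are no test of the set, because the 10 genes were chosen with earlier results of these data known.

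**Figure D1:**
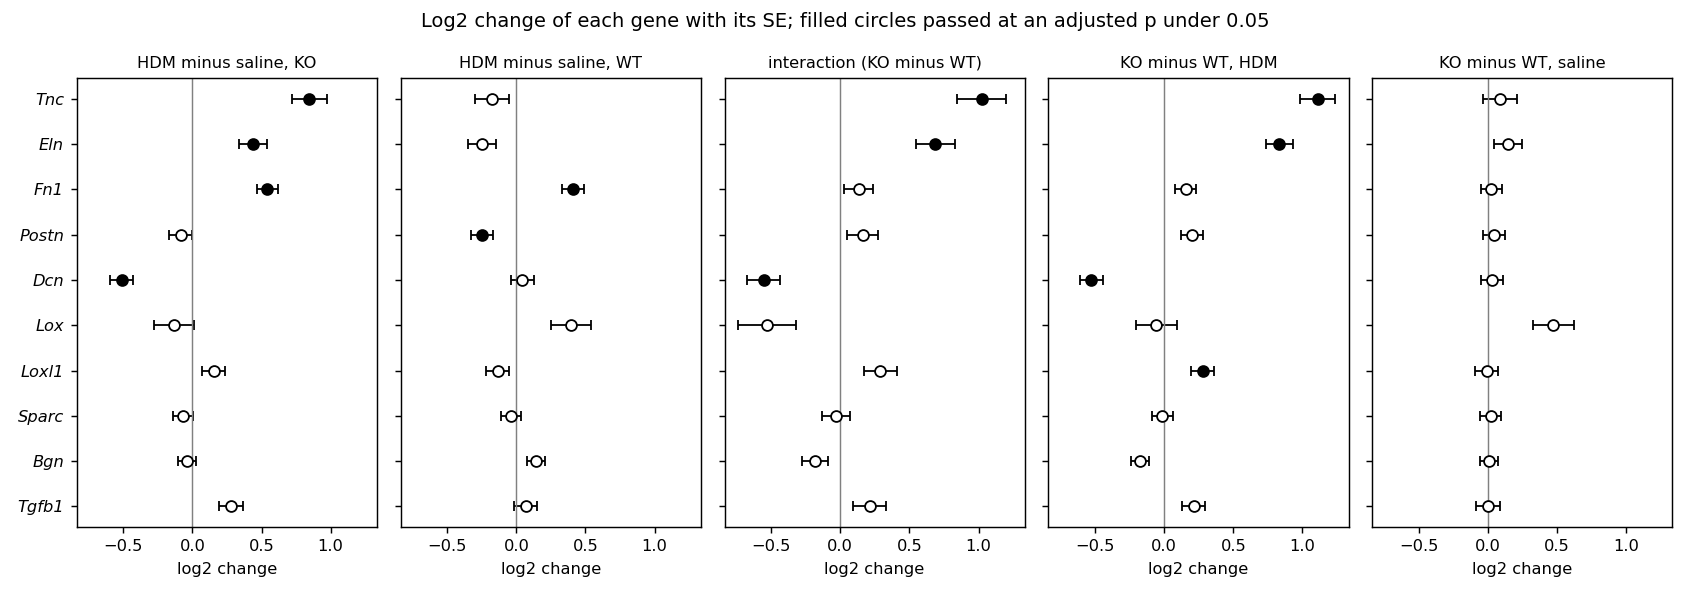
Log2 change (x axis) of each of the 10 genes (y axis) in the 5 comparisons, with bars for limma's SE and filled circles for genes that passed at an adjusted p under 0.05. Tnc, Eln and Dcn are filled with HDM in KO lungs, in the interaction and between KO and WT lungs under HDM, and no circle is filled in the panel for saline.

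Elastin, the rubber-like core protein of elastic fibres, was highest in KO lungs given HDM and lowest in WT lungs given HDM. Eln was at 11.93, 11.49, 11.59 and 11.98 on the KO HDM arrays and at 11.44, 11.30, 11.36 and 11.13 on the KO saline arrays. It was at 11.01, 10.84, 11.01 and 10.79 on the WT HDM arrays and at 11.16, 11.18, 11.25 and 11.06 on the WT saline arrays. Every KO HDM array lay above all the other arrays and every WT HDM array below them, while the saline groups overlapped. HDM raised Eln by 0.44 in KO lungs (SE 0.10, 1.35-fold, adjusted p = 0.0104), against a change of -0.25 in WT lungs that did not pass (SE 0.10, adjusted p = 0.0887). The interaction was 0.69 (SE 0.14, adjusted p = 0.0353). KO lungs exceeded WT lungs under HDM by 0.83 (SE 0.10, 1.78-fold, adjusted p = 0.000252, rank 14 by p among all genes). Under saline the difference was 0.15 (adjusted p = 0.833, 95% interval -0.06 to 0.36). The interaction of Eln passed in 15 of 26 alternative settings and did not pass without WT saline 2 and 3 (0.63, adjusted p = 0.174). Nor did it pass when KO HDM 1, KO saline 2, 3 or 4, WT HDM 2 or 4, or WT saline 1, 2 or 3 was left out singly, at 0.63 to 0.70 (adjusted p between 0.0505 and 0.0782). The difference between genotypes under HDM was 0.75 without KO HDM 4 and passed in all 27 alternatives.

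Of the enzymes that cross-link elastin and collagen, Loxl1 passed in 1 comparison and Lox in none. Loxl1, a lysyl oxidase that acts mainly on elastin, was at 10.07, 9.92, 10.13 and 10.40 on the KO HDM arrays and at 10.04, 9.93, 9.93 and 9.99 on the KO saline arrays. It was at 9.95, 9.76, 9.85 and 9.85 on the WT HDM arrays and at 9.88, 9.90, 10.03 and 10.14 on the WT saline arrays. The KO HDM and WT HDM arrays overlapped, although Loxl1 was higher in KO lungs under HDM by 0.28 (SE 0.08, adjusted p = 0.0427). Without KO HDM 4, the highest array, the difference was 0.19 and did not pass (adjusted p = 0.0857), and it passed in 10 of 27 alternatives. It was also lost without any single one of KO HDM 1 or 3, the 4 KO saline arrays, WT HDM 2, 3 or 4, or WT saline 3, with an adjusted p of at most 0.119, and without WT saline 2 and 3 together (0.28, adjusted p = 0.0641). Its changes with HDM were 0.15 in KO lungs (adjusted p = 0.295) and -0.13 in WT lungs (adjusted p = 0.261), with an interaction of 0.29 (adjusted p = 0.254).

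Lox, the founding lysyl oxidase, was at 11.44, 11.42, 11.45 and 11.81 on the KO HDM arrays and at 11.61, 11.86, 11.43 and 11.76 on the KO saline arrays. On the WT HDM arrays it was at 11.51, 11.89, 11.47 and 11.47, and on the WT saline arrays at 10.67, 11.38, 11.31 and 11.39. The WT saline arrays lay below all the others, with WT saline 1 far below, and the other 3 groups overlapped. No comparison of Lox passed: its changes with HDM were -0.13 in KO lungs (adjusted p = 0.633) and 0.40 in WT lungs (SE 0.15, adjusted p = 0.0694), and the interaction was -0.53 (SE 0.21, adjusted p = 0.222, 95% interval -0.97 to -0.09). KO lungs had 0.47 more than WT lungs under saline (SE 0.15, adjusted p = 0.291) and a difference of -0.06 under HDM (adjusted p = 0.847). Without WT saline 1 the change in WT lungs was 0.22 and the difference between genotypes under saline 0.30. 

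**Figure D2:**
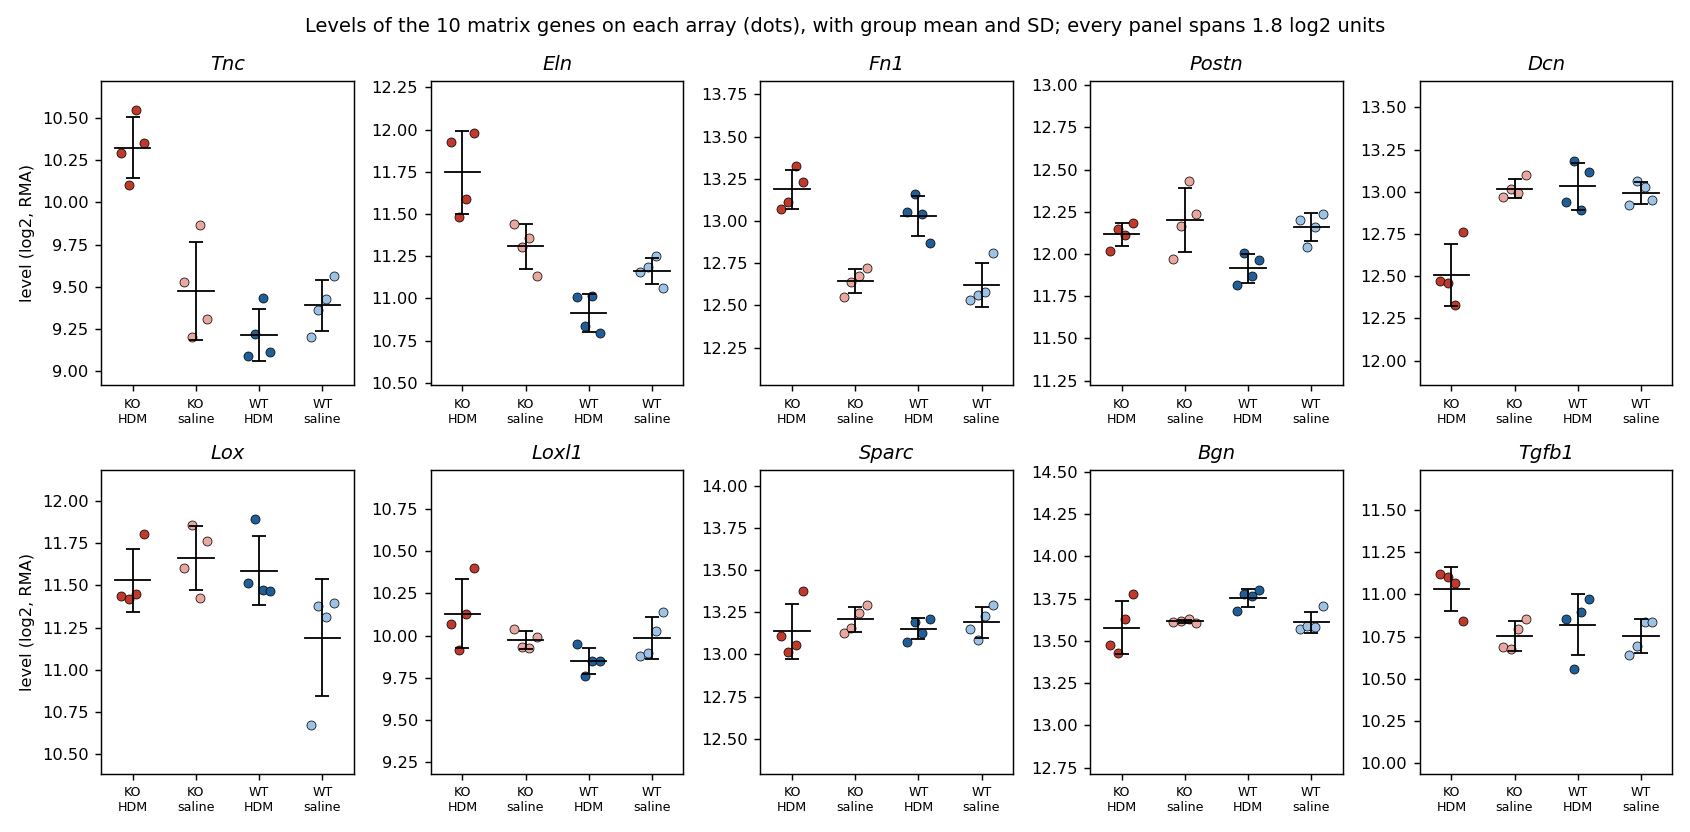
RMA log2 level (y axis) of each of the 10 genes on each array (dots), by group (x axis), with the group mean and SD; every panel spans the same number of log2 units. For Tnc and Eln the KO HDM dots lie above all others, for Dcn below all others, and for Fn1 both HDM groups lie above both saline groups.

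Tenascin C, a matricellular glycoprotein that is scarce in healthy adult tissue and rises during remodelling, showed the steepest response of the set. Tnc was at 10.29, 10.10, 10.54 and 10.35 on the KO HDM arrays and at 9.53, 9.20, 9.86 and 9.31 on the KO saline arrays. It was at 9.09, 9.22, 9.43 and 9.11 on the WT HDM arrays and at 9.20, 9.36, 9.43 and 9.56 on the WT saline arrays. Every KO HDM array lay above all other arrays, and the other 3 groups overlapped. The order of the group means was KO HDM (10.32 ± 0.18, SD, n = 4), KO saline (9.48 ± 0.29), WT saline (9.39 ± 0.15) and WT HDM (9.21 ± 0.16), and among the lower 3 KO saline against WT saline and WT HDM against WT saline did not pass. HDM raised Tnc by 0.85 in KO lungs (SE 0.13, 1.8-fold, adjusted p = 0.000462), and the change in WT lungs was -0.18 (SE 0.13, adjusted p = 0.32). The interaction was 1.02 (SE 0.18, adjusted p = 0.0167), and it was 1.01 without KO HDM 4. It passed in 25 of 26 alternatives, and without WT saline 2 and 3 it was 1.02 with an adjusted p of 0.0929. Under HDM KO lungs exceeded WT lungs by 1.11 (SE 0.13, 2.16-fold, adjusted p = 0.000126, rank 12 by p among all genes), and under saline the difference was 0.09 (adjusted p = 0.952, 95% interval -0.18 to 0.35).

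Periostin, a matricellular protein made by fibroblasts and by airway epithelium exposed to interleukin 13, fell with HDM in WT lungs and did not pass in KO lungs. Postn was at 12.02, 12.15, 12.11 and 12.18 on the KO HDM arrays and at 11.97, 12.17, 12.43 and 12.24 on the KO saline arrays. It was at 11.82, 12.00, 11.87 and 11.96 on the WT HDM arrays and at 12.20, 12.04, 12.16 and 12.24 on the WT saline arrays. The WT HDM arrays lay below those of WT saline and of KO HDM, and the KO groups overlapped. Postn fell by 0.25 with HDM in WT lungs (SE 0.08, adjusted p = 0.0434), and its change in KO lungs was -0.09 (adjusted p = 0.566). The fall passed in 14 of 27 alternatives, with adjusted p between 0.0235 and 0.101, and not without WT saline 2 and 3 (-0.31, adjusted p = 0.0883). Leaving out KO HDM 2 or 3, KO saline 2 or 4, WT HDM 1, 3 or 4, or WT saline 1, 3 or 4 singly also ended the call, at changes of -0.26 to -0.21. The interaction was 0.16 (adjusted p = 0.525, 95% interval -0.08 to 0.40) and the difference between genotypes under HDM 0.20 (adjusted p = 0.114). Tnc and Postn both carried a TATAA close to the start in the windows above. Tnc rose in KO lungs and Postn fell in WT lungs, where the change of Tnc was -0.18 and did not pass. A link of the motif to these changes was not tested.

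Sparc, a collagen-binding matricellular protein, passed in no comparison, at levels between 13.01 and 13.37 on the KO HDM arrays and 13.13 and 13.29 on the KO saline arrays. It was between 13.07 and 13.21 on the WT HDM arrays and 13.09 and 13.29 on the WT saline arrays, so that all 4 groups overlapped. Its changes with HDM were -0.07 in KO lungs (adjusted p = 0.62) and -0.04 in WT lungs (adjusted p = 0.729). The 95% interval of the interaction ran from -0.25 to 0.19, and the interactions of Sparc and Tnc were not tested against each other.

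Fibronectin, the adhesive glycoprotein of provisional matrix, rose with HDM in both genotypes. Fn1 was at 13.07, 13.11, 13.33 and 13.23 on the KO HDM arrays and at 12.55, 12.64, 12.67 and 12.72 on the KO saline arrays. On the WT HDM arrays it was at 13.05, 13.16, 13.04 and 12.87, and on the WT saline arrays at 12.53, 12.56, 12.58 and 12.81. All 8 HDM arrays lay above all 8 saline arrays, and the genotypes overlapped within each treatment. The rise was 0.54 in KO lungs (SE 0.08, 1.46-fold, adjusted p = 0.000294) and 0.41 in WT lungs (SE 0.08, 1.33-fold, adjusted p = 0.00277). The interaction was 0.13 (SE 0.11, adjusted p = 0.591, 95% interval -0.10 to 0.36), and KO and WT lungs differed by 0.16 under HDM (adjusted p = 0.203) and 0.02 under saline (adjusted p = 0.986). Both rises passed in all 27 alternatives.

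Decorin, a small leucine-rich proteoglycan that decorates collagen fibrils and sequesters TGF-beta, was the one gene of the set that fell with HDM in KO lungs. Dcn was at 12.47, 12.46, 12.33 and 12.76 on the KO HDM arrays and at 12.97, 13.02, 12.99 and 13.10 on the KO saline arrays. It was at 12.94, 13.18, 12.89 and 13.12 on the WT HDM arrays and at 12.92, 13.06, 13.03 and 12.95 on the WT saline arrays. Every KO HDM array lay below all other arrays, and the other 3 groups overlapped. The fall with HDM in KO lungs was -0.51 (SE 0.08, adjusted p = 0.000915), which leaves 0.701 of the KO saline level on a linear scale, and the change in WT lungs was 0.04 (adjusted p = 0.737). KO lungs were lower than WT lungs under HDM by -0.53 (SE 0.08, adjusted p = 0.00149), and -0.61 without KO HDM 4, the highest KO HDM array. The interaction was -0.56 (SE 0.12, adjusted p = 0.0369) and passed in 11 of 26 alternatives. It did not pass when any single array other than KO HDM 4, WT HDM 1 or WT HDM 3 was left out, at -0.58 to -0.50 (adjusted p between 0.0529 and 0.0838). Without WT saline 2 and 3 it was -0.61 and did not pass (adjusted p = 0.118).

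Biglycan, the closest relative of decorin in the set, passed in no comparison. Bgn was at 13.48, 13.43, 13.63 and 13.78 on the KO HDM arrays and at 13.61, 13.62, 13.63 and 13.60 on the KO saline arrays. It was at 13.68, 13.78, 13.77 and 13.80 on the WT HDM arrays and at 13.57, 13.59, 13.58 and 13.70 on the WT saline arrays. The KO HDM arrays spread widely around the narrow KO saline range, and the WT groups overlapped at their edges. Its changes with HDM were -0.04 in KO lungs (adjusted p = 0.778) and 0.14 in WT lungs (adjusted p = 0.128), with an interaction of -0.18 (adjusted p = 0.361). The difference between genotypes under HDM was -0.18 (SE 0.07, adjusted p = 0.0897), and it passed without KO HDM 4 (-0.24, adjusted p = 0.00811).

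Tgfb1, the growth factor that drives matrix gene expression in fibroblasts, was at 11.12, 11.10, 11.07 and 10.84 on the KO HDM arrays and at 10.69, 10.67, 10.80 and 10.86 on the KO saline arrays. It was at 10.85, 10.56, 10.90 and 10.97 on the WT HDM arrays and at 10.64, 10.70, 10.83 and 10.84 on the WT saline arrays. KO HDM 1, 2 and 3 lay above all other arrays and KO HDM 4 among them. The change with HDM in KO lungs was 0.28 (SE 0.09, adjusted p = 0.0524), just short of the threshold, and it was 0.34 without KO HDM 4, where it passed (adjusted p = 0.0136). It also passed without WT HDM 2 or WT HDM 4, with the same change. In WT lungs the change was 0.07 (adjusted p = 0.596), and the interaction was 0.21 (adjusted p = 0.415, 95% interval -0.04 to 0.47). Between KO and WT lungs under HDM the difference was 0.21 (adjusted p = 0.118), and 0.28 without KO HDM 4 (adjusted p = 0.0311).

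The scaffold on which elastin is laid down was examined through 17 measured genes of elastic fibre assembly. In KO lungs, where 8.84% of all genes changed with HDM, 3 of the 17 rose and 0 fell. They were the latent TGF-beta binding protein Ltbp2 (0.38, adjusted p = 0.0109), the lysyl oxidase relative Loxl4 (0.38, adjusted p = 0.00252) and the elastin microfibril interfacer Emilin2 (0.33, adjusted p = 0.0415). In WT lungs, where 17.6% of all genes changed, 0 rose and 3 fell. These were the microfibril glycoprotein Mfap5 (-0.42, adjusted p = 0.0211), fibulin 2 (Fbln2, -0.27, adjusted p = 0.021) and fibrillin 2 (Fbn2, -0.24, adjusted p = 0.0135). Of all genes 11.7% differed between genotypes under HDM and 0.802% passed in the interaction. The 4 shares also stand beside the counts of every list below. Under HDM 4 of the 17 were higher in KO than in WT lungs, among them Adamtsl2, which interacts with microfibrils, by 0.41 (adjusted p = 0.00721), and 1 was lower, Ltbp4, which guides elastin assembly (-0.52, adjusted p = 0.0158). In the interaction 1 passed, Loxl4 (0.48, adjusted p = 0.0363), and it did not pass without WT saline 2 and 3. Leaving out single arrays ended the call of Loxl4 in the interaction for 12 of the 16 arrays, that of Emilin2 for 11, that of Fbln2 for 3, that of Mfap5 in WT lungs for 2 and that of Ltbp4 for 2. The median change of the list was 0.058 with HDM in KO lungs and -0.051 in WT lungs, beside -0.028 and -0.051 for all genes.

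Among 19 further matricellular genes 3 rose and 2 fell with HDM in KO lungs (8.84% of all genes changed). In WT lungs 2 rose and 2 fell (17.6% of all genes changed). Thrombospondin 1 (Thbs1), an activator of latent TGF-beta, rose by 0.71 in KO lungs (adjusted p = 0.000126), against a change of 0.03 in WT lungs, and its interaction of 0.68 passed (adjusted p = 0.0232). Thbs4 rose by 0.48 in KO lungs and Thbs3 fell by 0.43. Ccn3 rose in both genotypes, by 0.82 in KO lungs and 0.65 in WT lungs. Ccn2, the connective tissue growth factor, rose by 0.44 in WT lungs (adjusted p = 0.0357) and had a change of 0.10 in KO lungs. Spon2 changed by -0.06 in KO lungs, which did not pass, and fell by 0.56 in WT lungs, with an interaction of 0.50 (adjusted p = 0.0373). Under HDM 2 of the 19 were higher in KO lungs and 1 lower, tenascin X (Tnxb), which is a tenascin of loose connective tissue, with a difference of -0.57 (adjusted p = 0.0046). The interaction of Spon2 was lost without any of 10 single arrays and that of Thbs1 without any of 5. The calls of Thbs4 and of Ccn2 were lost without any of 4, and that of Ccn3 without 1 in KO lungs and any of 5 in WT lungs.

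Of 10 small leucine-rich proteoglycans beside Dcn and Bgn, 2 rose and 2 fell with HDM in KO lungs (8.84% of all genes changed). In WT lungs 2 rose and 1 fell (17.6% of all genes changed). Fibromodulin (Fmod), which regulates collagen fibril assembly, rose by 0.96 in KO lungs (adjusted p = 5.55e-06) and had a change of 0.19 in WT lungs (adjusted p = 0.133). Its interaction was 0.77 (adjusted p = 0.0112), opposite in sign to that of Dcn. Lumican (Lum) fell in both genotypes, by 0.53 in KO lungs and 0.47 in WT lungs, and podocan (Podn) rose in both, by 0.44 and 0.36. Under HDM 1 of the 10 was higher in KO lungs, Fmod by 0.83, and 3 were lower, namely Ecm2 (-0.71), osteoglycin (Ogn, -0.57) and osteomodulin (Omd, -0.44). Of these the calls of Ogn and Omd were each lost without any of 4 single arrays, and that of Ecm2 with HDM in KO lungs without any of 10. Those of Fmod and Podn held without each single array. Without WT saline 2 and 3 together the interaction of Fmod did not pass (0.72, adjusted p = 0.0879). Nor did the changes of Podn (0.32, adjusted p = 0.0689) and Lum (-0.56, adjusted p = 0.0565) in WT lungs. The fall of Lum did not pass without KO HDM 3, KO saline 3 or KO saline 4 in KO lungs, nor without WT saline 4 in WT lungs.

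Of 19 measured genes of the TGF-beta pathway beyond Tgfb1, 4 rose and 2 fell with HDM in KO lungs (8.84% of all genes changed). In WT lungs 2 rose and 2 fell (17.6% of all genes changed). In KO lungs the regulator of latent TGF-beta on myeloid cells Nrros rose by 0.36 (adjusted p = 0.0136), the feedback inhibitor Pmepa1 by 0.29 (adjusted p = 0.00298) and the corepressor Tgif1 by 0.26 (adjusted p = 0.0293), which also rose in WT lungs, by 0.23 (adjusted p = 0.0326). The co-receptor Tgfbr3 fell by 0.40 in KO lungs (adjusted p = 0.0474), and it was lower in KO than in WT lungs under HDM (-0.59, adjusted p = 0.00614). In WT lungs the receptor Tgfbr1 rose by 0.31, and the receptor Tgfbr2 and the ligand Tgfb2 fell by 0.17 and 0.20. In the interaction 0 of the 19 passed in limma, with 4 at an unadjusted p under 0.05. The call of Pmepa1 held without each single array, as did that of Tgfbr3 between genotypes under HDM. The fall of Tgfbr3 with HDM in KO lungs was lost without any of 11 arrays, and the falls of Tgfbr2 and Tgfb2 in WT lungs without any of 10 and 12. The rise of Nrros was lost without any of 2, and that of Tgif1 without any of 6 in KO lungs and any of 6 in WT lungs.

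Of 15 matrix receptors 2 rose with HDM in KO lungs, the fibronectin receptor subunit Itga5 by 0.39 (adjusted p = 0.000712) and the vitronectin receptor subunit Itgb3 by 0.26 (adjusted p = 0.0236). In WT lungs 1 rose and 1 fell, beside 17.6% of all genes changed there and 8.84% in KO lungs. Itgav rose by 0.17 and Itgb1, the common beta subunit, fell by 0.31. Under HDM 4 of the 15 were higher in KO lungs, with Itgb3 at 0.32, Itgb8 at 0.26 and the heparan sulfate proteoglycan syndecan 4 (Sdc4) at 0.22, and 1 was lower, the tenascin and fibronectin receptor subunit Itga8 (-0.52, adjusted p = 0.0204). In the interaction 0 of the 15 passed, with 3 at an unadjusted p under 0.05. The call of Itga5 in KO lungs held without each single array, that of Itgb3 was lost without any of 5, that of Itga8 without any of 3, that of Itgav without any of 11 and that of Itgb8 without any of 12.

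Among 14 elastases, other matrix proteases and their inhibitors 5 rose and 1 fell with HDM in KO lungs (8.84% of all genes changed). In WT lungs 4 rose and 1 fell (17.6% of all genes changed). Macrophage elastase (Mmp12), which degrades elastin, rose in both genotypes, by 3.44 in KO lungs (SE 0.40, adjusted p = 4.78e-05) and by 1.51 in WT lungs (SE 0.40, adjusted p = 0.0178). The elastin-degrading cathepsin K (Ctsk) also rose in both, by 1.55 in KO lungs and 1.21 in WT lungs, and cathepsin S (Ctss) rose by 0.78 in KO lungs. The protease inhibitor Timp1 rose by 1.78 in KO lungs (SE 0.37, adjusted p = 0.0059), against a change of 0.03 in WT lungs, and under HDM it was 1.64 higher in KO lungs (adjusted p = 0.011). The interactions were 1.93 for Mmp12 (adjusted p = 0.106) and 1.75 for Timp1 (adjusted p = 0.117), and 0 of the 14 passed, with 6 at an unadjusted p under 0.05. Under HDM 3 were higher in KO lungs and 0 lower, the others being the gelatinase Mmp2 (0.38) and the membrane-bound collagenase Mmp14 (0.37). In WT lungs the rise of Mmp12 did not pass without WT saline 1 (1.12) and that of Ctsk without WT HDM 4 (0.99), and the call of Mmp2 was lost without any of 3 single arrays.

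**Figure D3:**
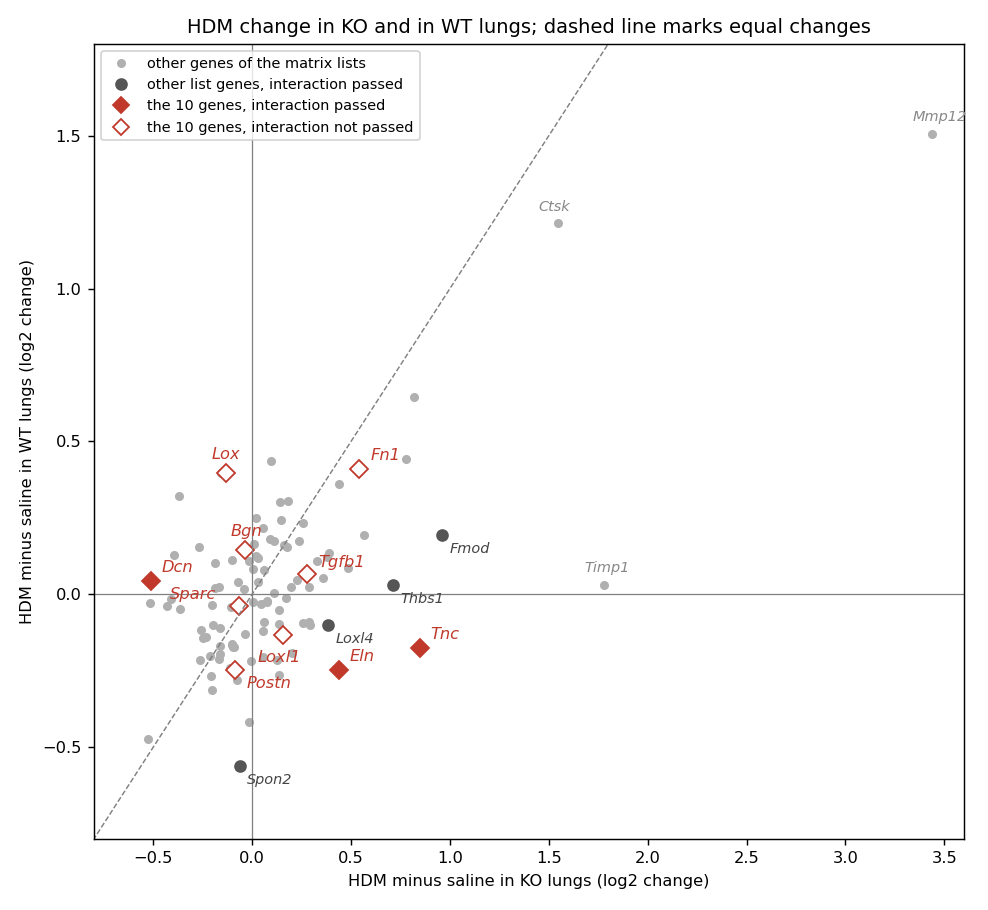
Log2 change with HDM in KO lungs (x axis) against that in WT lungs (y axis), for the 10 genes (red diamonds) and the other genes of the matrix lists (grey); filled diamonds and dark grey dots passed in the interaction, and the dashed line marks equal changes. Tnc and Eln lie right of the line and below 0 on the y axis, Dcn lies left of it, and Fn1 lies near it.

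Genes outside the set were ranked by Pearson r over the 16 arrays, highest positive r first. Symbols starting with Mir, Snor or Gm and a digit, or ending in Rik, were left out. Tnc followed Col3a1 (Pearson r = 0.902, Spearman rho = 0.732), F2rl2 (r = 0.890, rho = 0.776) and Npy1r (r = 0.885, rho = 0.868) most closely. Eln followed Col1a1 (r = 0.879, rho = 0.832), Matn2 (r = 0.853, rho = 0.885) and F2rl2 (r = 0.849, rho = 0.785). For Dcn the closest were Cavin2 (r = 0.944, rho = 0.809), Ms4a4d (r = 0.941, rho = 0.721) and Gsta3 (r = 0.937, rho = 0.821). The arrays share group membership, and with the group means subtracted the r of Col3a1 with Tnc was 0.363 and that of Col1a1 with Eln 0.284, whereas that of Cavin2 with Dcn was 0.875.

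Fibroblasts and smooth muscle make much of the lung's matrix. Of 10 fibroblast genes 4 rose and 1 fell with HDM in KO lungs (8.84% of all genes changed). In WT lungs 0 rose and 1 fell (17.6% of all genes changed). Under HDM 4 were higher in KO lungs (11.7% of all genes differed), the collagen genes Col1a1, Col1a2, Col3a1 and Col14a1. These 4 were also among the 5 called with HDM in KO lungs, where the median change of the list was 0.044. In the interaction 3 passed (0.802% of all genes). The interaction was 0.42 for Col1a1 (adjusted p = 0.0253), 0.43 for Col3a1 (adjusted p = 0.0353) and 0.77 for Col14a1 (adjusted p = 0.0496), and was lost without any of 8, 11 and 13 single arrays in that order. None of the 3 passed without WT saline 2 and 3. The mean level of the whole fibroblast list lay between 10.35 and 10.52 on the KO HDM arrays, 10.27 and 10.40 on the KO saline arrays, 10.32 and 10.37 on the WT HDM arrays and 10.32 and 10.46 on the WT saline arrays, and so overlapped. The fibroblast markers Pdgfra and Tcf21 changed by -0.07 and -0.07 with HDM in KO lungs and did not pass. Of 8 smooth muscle genes 3 rose in KO lungs (4.96% of all genes rose), with Acta2 at 0.43, Actg2 at 0.51 and Myh11 at 0.54. In WT lungs 1 rose, Myh11 by 0.35, and 1 fell, Tagln by 0.39 (7.86% of all genes rose and 9.72% fell). In the interaction 0 of the 8 passed, with 3 at an unadjusted p under 0.05. The mean level of the 8 lay at 10.80 to 11.11 on KO HDM, 10.65 to 10.84 on KO saline, 10.82 to 10.99 on WT HDM and 10.65 to 10.95 on WT saline arrays. The part of these cell types in the results was not tested.

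Inflammatory cell genes rose with HDM in both genotypes beside Fn1, where 4.96% of all genes rose in KO lungs and 7.86% in WT lungs. Of 10 macrophage genes 7 rose in KO lungs and 5 in WT lungs, and their mean level was 10.46 to 11.06 on KO HDM, 10.05 to 10.25 on KO saline, 10.26 to 10.94 on WT HDM and 9.92 to 10.20 on WT saline arrays. Of 7 eosinophil genes 5 rose in KO lungs and 3 in WT lungs, with Ccr3 at 2.60 and 1.78. Under HDM 3 of them were higher in KO lungs (5.84% of all genes were higher). The mean level of 7 endothelial genes was 11.96 to 12.37 on KO HDM arrays and 12.27 to 12.42 on WT HDM arrays. Of the 7, 0 were higher and 4 lower in KO lungs under HDM (5.83% of all genes were lower), beside Dcn. This count ranged from 0 to 4 over the alternatives: the call of Cdh5 was lost without any of 13 single arrays, that of Tmem100 without any of 5 and that of Tek without KO HDM 1 or KO HDM 3, so that without KO HDM 1 the call of Kdr alone held. The circadian clock separated the WT HDM arrays from the rest, and so moved with every comparison that uses them. Of 13 clock genes 7 rose and 1 fell with HDM in WT lungs (17.6% of all genes changed). Under HDM 1 was higher and 7 lower in KO lungs (11.7% of all genes differed), and 1 passed in the interaction (0.802% of all genes). The clock output gene Dbp was at 9.51 to 10.19 on KO HDM, 9.47 to 9.86 on KO saline, 10.60 to 11.15 on WT HDM and 9.45 to 9.68 on WT saline arrays. RMA gives every probe set a level, so the absence of a marker cannot be read from these values, and the part of these cells and of the clock in the matrix results was not tested.

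**Figure D4:**
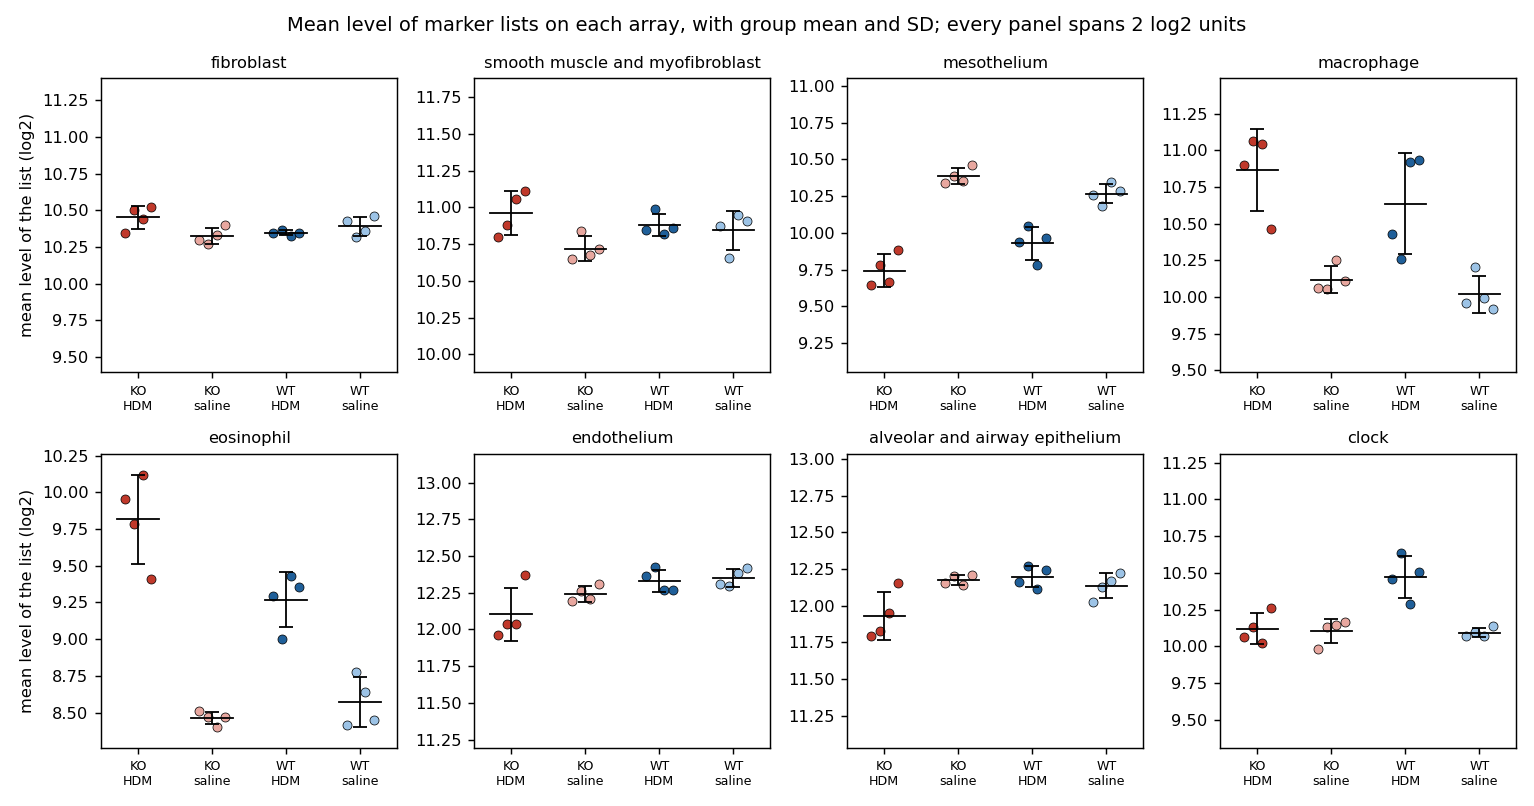
Mean RMA log2 level (y axis) of 8 marker lists on each array (dots), by group (x axis), with the group mean and SD; every panel spans the same number of log2 units. Macrophage and eosinophil genes are higher in the HDM groups, clock genes are highest on the WT HDM arrays, and fibroblast genes overlap across the groups.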

How the data were processed

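Lung RNA, 50 ng of total RNA a sample, was run on 16 whole-transcript Affymetrix arrays, per the labels' protocols. The authors deposited a log2 level for each probe set and array, computed by RMA in Affymetrix Expression Console according to the submitters' processing notes. Software versions and the annotation's build were not found in the sources used. RMA shares probe effects across arrays, and precision is limited by how many arrays there are. Of 35556 probe sets, 21789 had 1 symbol in the platform annotation, 1621 several and 12146 were not named here. Gene IDs of 21698 matched the GRCm38.p6 table, 91 did not, and 0 symbols were updated. For the 999 genes with several single-symbol probe sets the one with the highest mean was kept.

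Levels were used as deposited. Linear models with 4 group means (12 residual degrees of freedom) were fitted with limma (version 3.58.1, under R 4.3.3) and moderated by eBayes, after a test on simulated data. Tests were two-sided, and Benjamini-Hochberg adjustment ran over the 19938 genes of each of 5 comparisons. Intervals are 95% intervals of single changes and are not adjusted. Both HDM comparisons are free of shared arrays, as are both genotype comparisons, but any HDM and any genotype comparison have a group in common.

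The 10 genes and the lists (195 further genes, 187 measured) were chosen with earlier results of these data known, and no list was tested as a set. Named were the 10 genes; from each list, in each comparison, at most 4 passing genes by size of change, with the smallest p-values making up the number to 2; the 3 genes best correlated with each of the 10 (given for Tnc, Eln and Dcn); and Vldlr, Rnase2a and Dbp. Alternatives were quantile normalization, a median shift, expression filters (25th and 50th percentile), limma's trend with robust moderation, array weights, fits of the compared groups alone, averaging or keeping all probe sets of a gene, the replicate block, and leaving out each array, or WT saline 2 and 3 together.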

Additional observations from a re-analysis of the deposited data

Results flagged for a closer look

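Within a group of 4 arrays, an array was marked when its distance to the nearest of the others exceeded the share of the group's range set by Dixon's 95% critical value, which chance gives in about 1 of 20 groups. Of 40 combinations of gene and group 4 were marked. They were Lox on KO HDM 4 (11.81), on WT HDM 2 (11.89) and on WT saline 1 (10.67), and Bgn on WT saline 4 (13.70).

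The change with HDM differed between genotypes, by limma's test of the interaction, for Tnc (1.02), Eln (0.69) and Dcn (-0.56) of the set. Among the list genes, the HDM change was higher in KO lungs for Ear6 (1.48), an eosinophil-associated ribonuclease, Col14a1 (0.77), Fmod (0.77), Thbs1 (0.68), Spon2 (0.50), Loxl4 (0.48), Col3a1 (0.43) and Col1a1 (0.42). It was lower in KO lungs for the clock gene Dbp (-1.27), the cartilage matrix gene Chad (-0.94) and the mesothelial gene Msln (-0.66). The calls of Ear6 and Chad were each lost without any of 8 single arrays, whereas those of Dbp and Msln held without each array. Without WT saline 2 and 3 together only that of Msln held among all of these.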

How the results depend on the processing

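No change of the 10 genes reversed where it was called. Of the 13 calls, 8 held under all alternatives, and 57 of 348 values fell short of the threshold; of the 37 changes that were not called, 32 stayed so, and 13 of 992 values passed. The calls of Tnc, Eln, Fn1 and Dcn with HDM in KO lungs, of Fn1 in WT lungs and of Tnc, Eln and Dcn between genotypes under HDM passed in 27 of 27 alternatives. Of the 148 list gene calls 64 held under all alternatives. The count of the 10 genes with HDM in WT lungs was 1 with the median shift, with all probe sets and without WT saline 2 and 3, and 1 to 2 when single arrays were left out; in the interaction it was 1 with all probe sets, 0 without WT saline 2 and 3, and 1 to 3 without single arrays. Eln in WT lungs passed with array weights (-0.27, adjusted p = 0.0468) and with only the groups compared (-0.25, adjusted p = 0.0403).

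Over all genes, array weights gave 2938 calls with HDM in KO lungs, 110 between genotypes under saline and 680 in the interaction. The filter at the 50th percentile gave 2289 with HDM in WT lungs and 19 between genotypes under saline, with fewer genes tested. Only the groups compared gave 390 between genotypes under HDM and 98 under saline, and all probe sets gave 65 in the interaction. Without WT saline 2 and 3, with fewer arrays, the counts were 1057 with HDM in WT lungs, 10 between genotypes under saline and 12 in the interaction. Without single arrays they ranged from 1034 (without KO HDM 3) to 2673 (without KO HDM 4) with HDM in KO lungs, from 1960 (without WT HDM 4) to 3799 (without KO HDM 4) in WT lungs, from 968 (without KO HDM 1) to 3831 (without KO HDM 4) between genotypes under HDM, from 14 (without KO saline 1) to 66 (without WT HDM 2) under saline, and from 41 (without WT saline 3) to 1019 (without KO HDM 4) in the interaction. The deposited values gave 1763, 3505, 2327, 46 and 160. The share of higher calls in WT lungs was 44.7%, and 56.3% (1668 higher, 1296 lower) after the median shift; in KO lungs it was 56.1% (989 higher, 774 lower), and 46.8% (905 higher, 1028 lower) after quantile normalization. The cause of these shifts was not tested.

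With the replicate block the interaction count was 258 over all genes, Lox in WT lungs passed (0.40, adjusted p = 0.043), and no call of the 10 genes was lost. Whether the numbers pair the arrays cannot be settled from these values, as the ranges overlap. Deviations from the group means correlated at -0.28 to 0.33 for 24 pairs with the same number, 7 of them over 0.1. For 72 other pairs they correlated at -0.39 to 0.39, 18 of them over 0.1. Of 16 arrays, 6 correlated best with an array of their own number in another group.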

Other observations

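Mesothelial genes, which mark the lining of the lung's surface, fell with HDM in both genotypes. Beside them 3.88% of all genes fell in KO lungs and 9.72% in WT lungs. Of 6 mesothelial genes measured, 5 fell in KO lungs and 4 in WT lungs. Msln was at -1.13 and -0.47, Upk3b at -0.83 and -0.44 and Krt19 at -0.81 and -0.57. The mean level of the 6 lay between 9.64 and 9.88 on the KO HDM arrays and 10.34 and 10.46 on the KO saline arrays. It lay between 9.78 and 10.05 on the WT HDM arrays and 10.18 and 10.34 on the WT saline arrays. The HDM and saline arrays of each genotype thus did not overlap. Msln was the one gene of the lists that differed between KO and WT lungs under saline (0.50, adjusted p = 0.00272), and it did not pass without WT saline 2 and 3 (0.43, adjusted p = 0.0551).

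Of 8 cardiac and skeletal muscle genes 3 were lower in KO than in WT lungs under HDM, the atrial and ventricular genes Myh6 (-0.77), Tnnt2 (-0.66) and Nppa (-0.46), and under saline their differences were -0.50, -0.54 and -0.43 without passing. The median difference of the 8 was -0.38 under HDM, with 7 at an unadjusted p under 0.05, and -0.44 under saline, with 6. Of 4 adipose genes 2 were lower in KO lungs under HDM, the lipid droplet genes Cidec (-0.74) and Plin1 (-0.39). Of 8 epithelial genes 2 were lower, the secretory club cell gene Scgb1a1 (-0.94) and the surfactant gene Sftpb (-0.31). Of 7 cartilage genes 1 was lower, Chad (-0.53), which rose by 0.75 with HDM in WT lungs. Over all genes 5.83% were lower in KO lungs under HDM and 11.7% differed in either direction. The lower calls of Tnnt2 and Chad were each lost without any of 3 single arrays, that of Nppa without any of 6 and that of Scgb1a1 without KO HDM 1.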
